A study of Mus musculus with 7 samples.

Results

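Heat shock proteins and their J-domain partners are the general protein-folding machinery of the cell. The 71 genes described here are those of a count table of 40879 mouse genes whose symbols fit a fixed name pattern: Hspa (Hsp70 and Hsp110 chaperones), Hsph1, Hsp90, Hspb (small heat shock proteins), Hspd1 and Hspe1 (the mitochondrial chaperonin), and Dnaja, Dnajb and Dnajc (J-domain proteins). In a coarse sorting by location, 44 of them were listed as cytosolic, 13 as proteins of the endoplasmic reticulum (ER), 9 as mitochondrial, and 5 were not assigned. The cytosolic list is broad and not limited to the cytosol proper. It includes Dnajc9, which carries histones, and Dnajb13 of the ciliary axoneme. RNA was sequenced from lateral ventricle choroid plexus of wild-type embryos of CD-1, an outbred mouse stock, collected at E15.5 (embryonic day) and pooled. The tissue was taken 24 h after red blood cells (3 libraries) or saline, the control (4 libraries). The cells were prepared from E14.5 donor blood that had been spun down and rinsed with saline. All libraries are of the wild-type genotype and of batch 1. The labels call them biological replicates but do not say how many embryos or litters went into a pool, so the p-values here speak to the spread among these 7 libraries alone.

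An Hsp70 protein binds exposed stretches of an unfolded client under the control of ATP. J-domain proteins bring clients to it and trigger ATP hydrolysis, and nucleotide exchange factors such as the Hsp110 proteins release the client again. Hsp90 proteins act later, on nearly folded clients, and small heat shock proteins hold unfolded proteins without using ATP. The cytosol, the ER and the mitochondrial matrix each have their own Hsp70, and the stress programmes that control them differ: heat shock factor 1 in the cytosol and nucleus, and the unfolded protein response for the ER. The choroid plexus epithelium secretes cerebrospinal fluid and large amounts of protein such as transthyretin, which it folds in the ER.

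Total counts ran from 4393860 to 8386928 per library, and chaperone genes took 1.03% to 1.18% of them. All 8 epithelial markers (Ttr, Otx2, Clic6, Kcne2, Folr1, Aqp1, Kl and Enpp2) were present in every library, with a summed level of 18080 to 19580 CPM (counts scaled to a common library size) after red blood cells and 18250 to 23570 after saline. All 8 had a log2 fold change (red blood cells minus saline) below 0, with a median of -0.08. Of all genes, 49.9% were above 0. By edgeR 2 of the markers (25%), Aqp1 and Folr1, had an unadjusted p under 0.05, where 9.54% of all genes did. At an adjusted p of 0.05 edgeR called 0 (0.0605% of all genes) and DESeq2 1 (1.39%). The markers of other cells of the tissue also differed between libraries. The 8 macrophage markers summed to 335 to 488 CPM after red blood cells and 218 to 285 after saline, with none at 0. The 6 hepatocyte markers summed to 1424 CPM in saline 4 and to 1.93 to 19.1 in the others, and the 8 neutrophil and monocyte markers to 70.5 CPM in red blood cells 2 and 2.41 to 18.0 elsewhere. The 6 mesenchymal markers summed to 2609 CPM in red blood cells 3 and 1362 to 1752 elsewhere. In such bulk samples, fewer cells of a type and less RNA per cell cannot be told apart.

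A small set of constitutive chaperones held most of the chaperone RNA per length. Levels of different genes were compared as RPKM, here the CPM per kilobase of exon. Hsp90ab1, the constitutive cytosolic Hsp90, had the highest mean at 688 RPKM (range over 7 libraries 615 to 767). Hsp90b1, the Hsp90 of the ER, followed at 633 (536 to 682), and Hspa5, the ER Hsp70 also called BiP, at 535 (464 to 599). Hspa8, the constitutive cytosolic Hsp70, had 416 (385 to 446), and Hsp90aa1, the more inducible cytosolic Hsp90, had 366 (318 to 413). These ranges overlapped between neighbours in the order except from Hspa5 to Hspa8, where they did not. Together these genes held 63.8% to 67.6% of the summed chaperone RPKM of a library, in the same order in 6 of 7 libraries. In saline 3, Hsp90b1 stood above Hsp90ab1.

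The next level was much lower and mixed compartments. It held the mitochondrial chaperonin subunits Hspd1 (mean 100.1 RPKM, range 88.0 to 116) and Hspe1 (87.7, 80.2 to 96.0), the J-protein Dnaja1 (81.8), the mitochondrial Hsp70 Hspa9 (81.7) and the exchange factor Hspa4 (80.4). Ranges of neighbours in this order overlapped. Dnajb13, a J-protein of the ciliary axoneme, came next at 53.7 RPKM. It was picked after its values were seen, since the epithelium is ciliated. By compartment, cytosolic genes held 53.4% to 55.5% of the summed RPKM, ER genes 33.8% to 36.5% and mitochondrial genes 8.66% to 9.82%, so that the division among compartments varied little between libraries.

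**Figure D1:**
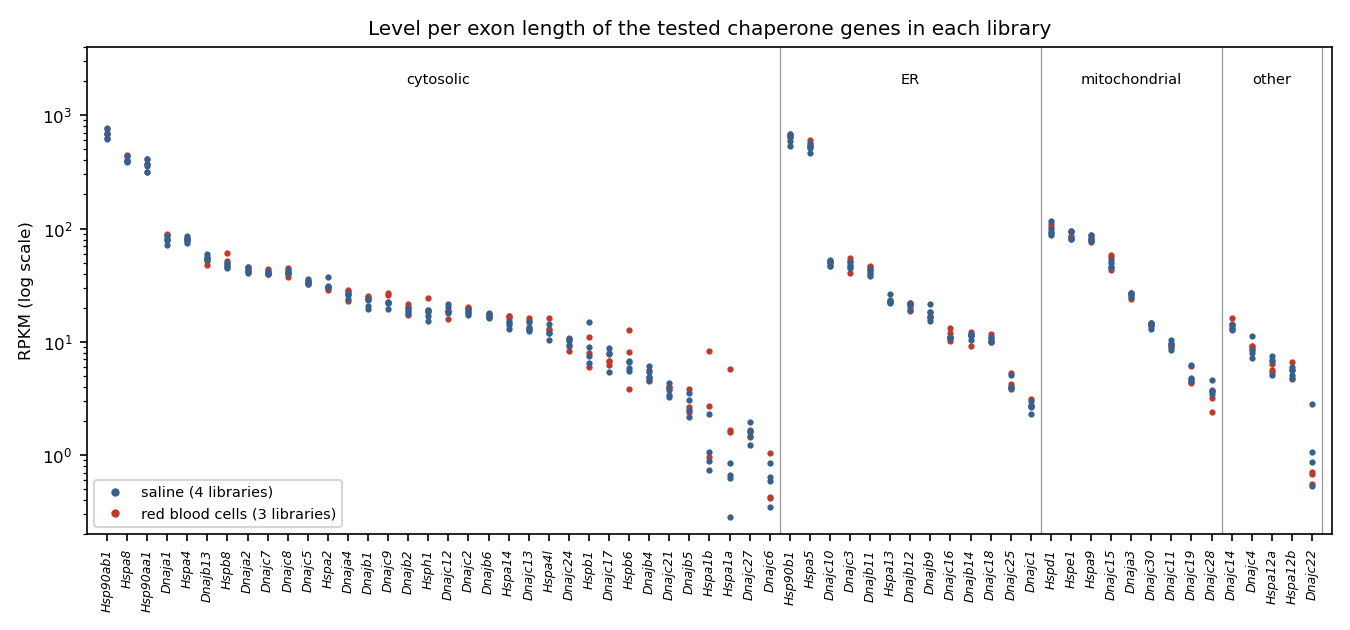
RPKM on a log axis for the 61 chaperone genes that passed the count filter, 1 point per library, by compartment and in order of mean level. The cytosolic and ER Hsp90 and Hsp70 genes stand near the top, from 366 to 688 RPKM on average, and the points of red blood cell and saline libraries lie close together for most genes, with Hspa1a and Hspa1b as visible exceptions.

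The inducible Hsp70 genes were among the lowest. Hspa1b had a mean of 2.43 RPKM and Hspa1a, its neighbour and near copy, 1.65, far below the constitutive Hspa8. Hspb1, the small heat shock protein also called Hsp27 or Hsp25, had 9.004 RPKM, and the heat-inducible Hsph1 and Dnajb1 had 18.9 and 23.1, while Hspb8, which works with the co-chaperone Bag3 in removing misfolded proteins, had 49.8. The 10 genes that did not pass the count filter were Dnajb3, Dnajb7, Dnajb8, Dnajc5b, Dnajc5g, Hspa1l, Hspb2, Hspb3, Hspb7 and Hspb9. Summed over a group they had at most 26 counts, and Dnajb8, Dnajc5g and Hspb9 had 0 in every library, where 3 counts, the limit that a count of 0 allows, correspond to 0.359 to 0.695 CPM. Several of them are known from testis or from muscle. Of 4 testis germ cell markers, Prm2, Tnp1 and Acrv1 were at 0 throughout and Prm1 had 1 count in red blood cells 3.

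Across the 61 tested genes, chaperone RNA after red blood cells was close to saline levels. In edgeR's quasi-likelihood test 0 passed an adjusted p of 0.05, where 0.0605% of all 14869 tested genes did. Limma-voom called 0 as well (0.0605% of all genes), also with sample weights (0.323%), and DESeq2 called 1, Hspa1a (1.39%). At an unadjusted p under 0.05 edgeR listed 5, against 9.54% of all genes: Hspa1a, Hspa14, Hspb8, Dnajc9 and Dnajb11. That is 8.20% of the tested chaperones, close to the background. The count depended on single libraries. It was 10 without red blood cells 3 (13.4% of all genes in that fit) and 8 without saline 4 (9.57%), but 3 without red blood cells 1 (9.45%), 2 without saline 1 (7.66%) and 3 without saline 2 (8.17%). All 5 had the higher mean after red blood cells, where 5.22% of all genes had such a p in that direction, and 0 had the lower mean (4.32% of all genes). The log2 fold change (red blood cells minus saline) was above 0 for 41 genes and below 0 for 20, where 49.9% of all genes were above 0. The median over these genes was 0.04 with quartiles of -0.03 and 0.11, beside a median of 0.00 and quartiles of -0.11 and 0.10 for all genes. Leaving out red blood cells 1 gave a median of 0.01, and leaving out saline 1 or saline 2 gave 0.02. The sizes were small: 56 of the 61 lay within 0.25 of 0 on the log2 scale.

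The data bounded most of these changes narrowly. Of 60 genes with a 95% interval from the edgeR fit, 53 had the whole interval inside a 1.5-fold change in either direction, and 40 inside 1.3-fold. The exceptions at 1.5-fold were Hspa1a, Hspa1b, Hspb1, Hspb6, Dnajc17, Dnajc22 and Dnajc28, all below 10 RPKM on average. Chaperone genes also varied less between replicates than others. Their median biological coefficient of variation was 9.97%, beside 12.3% for all tested genes. Hspa4 was the steadiest at 7.51%, and Hspa1b (65.8%) and Hspa1a (45.7%) varied most. Higher counts go with lower variation, and the part of level in this was not tested.

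**Figure D2:**
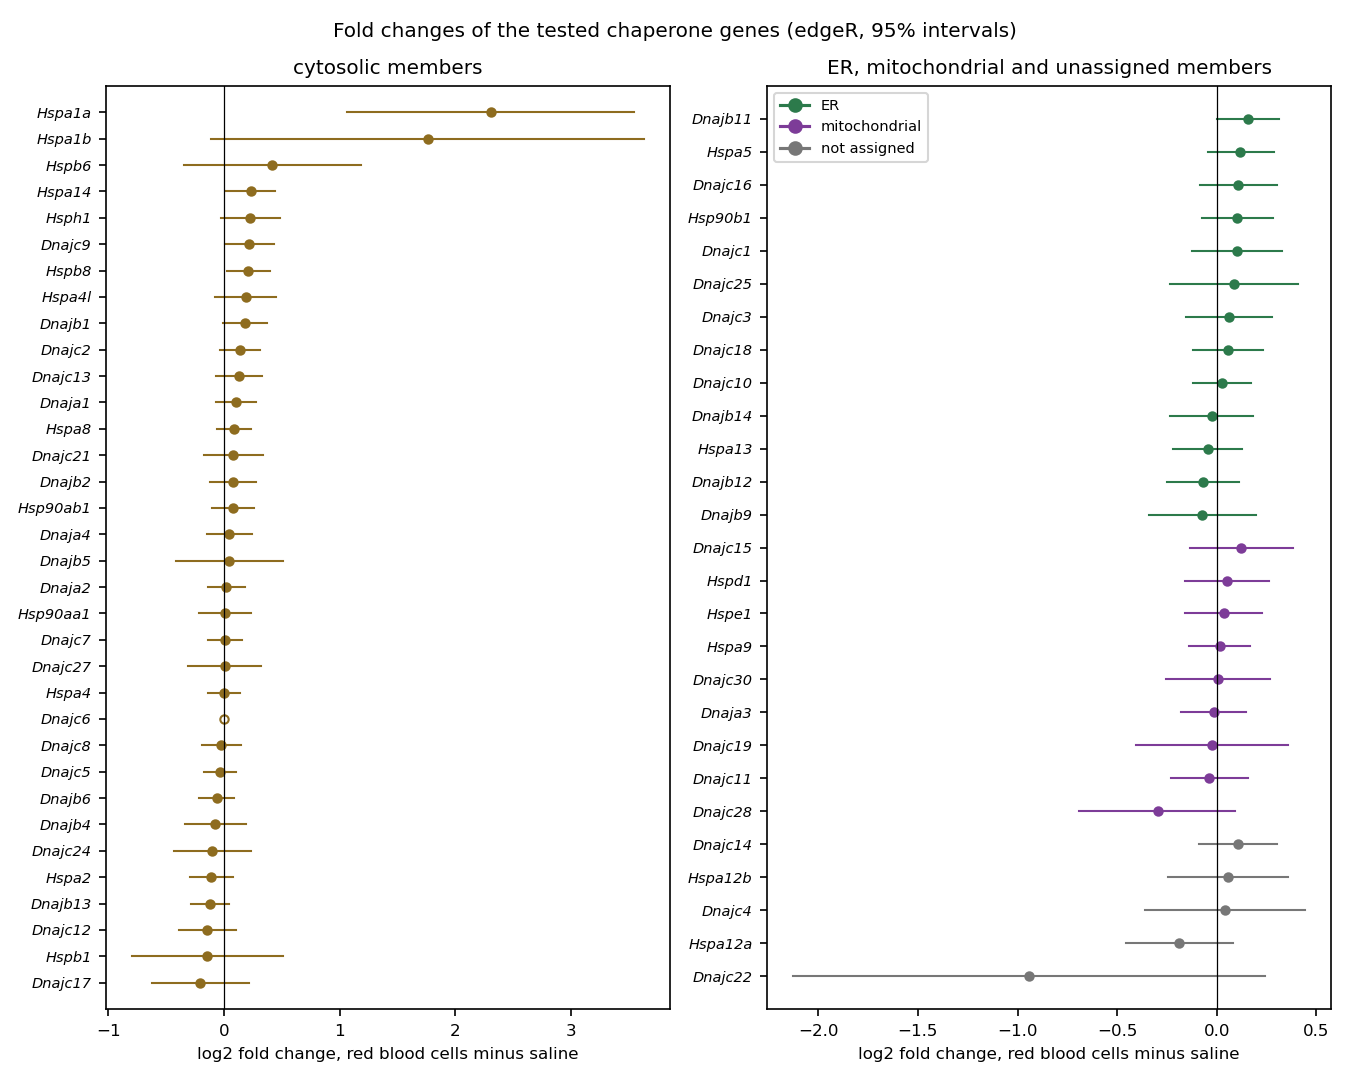
Log2 fold change of each tested chaperone gene, red blood cells minus saline, with its 95% interval from edgeR. The left panel holds cytosolic genes and the right panel the others, on separate axes, and the open circle marks Dnajc6, whose estimate of 0.00 gave no interval. Nearly all points sit within 0.25 of the line at 0, and Hspa1a and Hspa1b lie far to the right with wide intervals.

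The largest differences were those of the inducible cytosolic Hsp70 pair. Hspa1a and Hspa1b lie next to each other on chromosome 17 (GRCm39, 35188335 to 35191132 and 35175405 to 35178214) and encode nearly the same protein, which accumulates after heat and other proteotoxic stress. Their promoters are shown because they too are nearly identical, although bases before the start are not in the RNA. In the RefSeq windows of 300 bases (250 before to 50 after the start, GRCm38.p6, minus strand, chr17:34972107-34972406 and chr17:34959189-34959488) the genes differ at 4 positions, printed in capitals, and are 98.7% identical:
Hspa1a: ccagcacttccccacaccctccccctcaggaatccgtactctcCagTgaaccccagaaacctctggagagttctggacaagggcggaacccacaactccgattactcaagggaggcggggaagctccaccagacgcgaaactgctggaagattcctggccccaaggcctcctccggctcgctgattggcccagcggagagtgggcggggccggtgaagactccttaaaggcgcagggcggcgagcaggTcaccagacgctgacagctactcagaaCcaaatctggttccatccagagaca
Hspa1b: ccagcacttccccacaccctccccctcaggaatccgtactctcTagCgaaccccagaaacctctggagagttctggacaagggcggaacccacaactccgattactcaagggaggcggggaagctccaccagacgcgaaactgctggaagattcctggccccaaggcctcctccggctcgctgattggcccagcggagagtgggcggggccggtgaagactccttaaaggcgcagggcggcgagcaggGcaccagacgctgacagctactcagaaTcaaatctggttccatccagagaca
The transcripts are also alike. Of all stretches of 100 bases, 47.1% of those in Hspa1a also occur in Hspa1b, and 49.9% of those in Hspa1b occur in Hspa1a. No label or header says how reads that fit both were counted, so each gene's own value is uncertain.

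Hspa1a had 129, 31 and 25 counts in red blood cells 1 to 3, and 12, 5, 20 and 8 in saline 1 to 4. In CPM these were 16.2, 4.69 and 4.53 against 1.77, 0.802, 2.39 and 1.85. Every red blood cell library was above every saline library, and red blood cells 1 was far above the rest. The means were 8.47 ± 6.69 CPM (SD, n = 3) and 1.71 ± 0.66 (SD, n = 4). The fold was 4.95 (95% interval 2.10 to 11.7, log2 fold change 2.31 ± 0.54 SE), with an edgeR adjusted p of 0.168 and a DESeq2 adjusted p of 0.00542. Over all alternative settings the adjusted p ran from 0.00542 to 0.411. Without red blood cells 1 the log2 fold change was 1.41 ± 0.40 (2.66-fold, edgeR adjusted p = 0.216), and without red blood cells 3 it was 2.597 (edgeR adjusted p = 0.0428).

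Hspa1b had 187, 18 and 42 counts after red blood cells, and 17, 13, 25 and 28 after saline. Its CPM were 23.5, 2.72 and 7.61 against 2.51, 2.09, 2.99 and 6.49, so that the groups overlapped and red blood cells 1 again stood alone at the top. The fold was 3.40 (95% interval 0.928 to 12.4), with an edgeR adjusted p of 0.559. Without red blood cells 1 it was 1.51, with an edgeR adjusted p of 0.859. Summing the pair, a choice made after seeing the data, avoids the division of shared reads. The summed CPM were 39.7, 7.41 and 12.1 against 4.29, 2.89, 5.38 and 8.34, and saline 4 lay above red blood cells 2. The summed counts gave 3.92-fold (log2 fold change 1.97 ± 0.67 SE, edgeR adjusted p = 0.400, DESeq2 0.213, limma-voom 0.369), and 1.89-fold without red blood cells 1 (edgeR adjusted p = 0.443). The summed inducible Hsp70 RNA was thus by far the highest in 1 library of 3, red blood cells 1. In edgeR its difference was not past the threshold with or without that library, and was smaller without it. Hspa1a alone was above every saline library in all red blood cell libraries.

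Red blood cells 1 was the highest library for other chaperones too. Of the 61 tested genes, 17 (27.9%) had their highest CPM there, where 11.3% of all genes did. In saline 4 it was 13 (21.3%, where 14.0% of all genes did), so a control library was above its background share too. Saline 4 is the library where the hepatocyte markers were highest, and the part of their source in this was not tested. Hsph1, an Hsp110 exchange factor that is induced by heat, had 157, 118 and 121 CPM against 110, 97.1, 124 and 122. Only red blood cells 1 lay above all saline libraries. Its log2 fold change was 0.23 ± 0.12 (SE, edgeR adjusted p = 0.593), and 0.09 without red blood cells 1. Hspa4l, another exchange factor and named after its values were seen, had 162 CPM in that library, 128 and 129 in the other red blood cell libraries and 104.5 to 145 after saline. The macrophage marker sums were 335, 488 and 461 CPM in red blood cells 1 to 3, and their part in these values was not tested.

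Other cytosolic genes with an unadjusted p under 0.05 differed by far smaller amounts. Hspa14, an Hsp70 that sits on the ribosome with its J-protein partner Dnajc2, had 29.4, 30.3 and 30.4 CPM against 23.4, 27.3, 25.5 and 26.2. The groups did not overlap, and the fold was 1.18 (95% interval 1.01 to 1.36, edgeR adjusted p = 0.455). Of the Hspa14 exon bases, 19.3% are shared with Msantd7 on the same strand, so these values are uncertain. Dnajc2 itself, named because it was 1 of the 3 genes without overlap (Hspa1a, Hspa14 and Dnajc2, where 9.59% of all genes had none), had 47.1, 44.6 and 46.4 CPM against 39.8, 41.2, 42.0 and 44.2. Its log2 fold change was 0.14 ± 0.08 (SE, edgeR adjusted p = 0.641). In all 3 the red blood cell side was the higher one, as for 4.96% of all genes, and 0 had the red blood cell libraries all lower (4.63%).

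Hspb8 had 94.6, 110 and 89.3 CPM after red blood cells, and 89.7, 81.5, 85.3 and 82.5 after saline. The groups overlapped only through saline 1 and red blood cells 3. The log2 fold change was 0.21 ± 0.09 (SE, edgeR adjusted p = 0.428). Dnajc9, a J-protein that also carries histones H3 and H4, had 43.7, 36.6 and 42.6 CPM against 36.7, 32.1, 36.2 and 35.7, with nearly the same log2 fold change, 0.22 ± 0.10 (SE, edgeR adjusted p = 0.490). Dnajb1, the heat-inducible J-protein that serves Hspa8 and Hspa1a, had 80.6, 82.1 and 76.6 CPM against 75.2, 62.4, 67.4 and 77.6. Only saline 4 reached into the range of the red blood cell libraries, and the log2 fold change was 0.18 ± 0.09 (SE, edgeR adjusted p = 0.567).

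The abundant constitutive cytosolic chaperones were nearly level. Hspa8 had 905 ± 48.0 CPM after red blood cells (SD, n = 3) and 852 ± 51.5 after saline (SD, n = 4), a 1.06-fold difference with a 95% interval of 0.960 to 1.18. Hsp90ab1 had 1776 ± 100.3 against 1685 ± 175, with an interval of 0.929 to 1.20. Hsp90aa1 had 1045 ± 128 against 1039 ± 113, with an interval of 0.862 to 1.18. Intervals of this width hold no change beyond about 1.2-fold in either direction. Hspa4 had 373.0 ± 9.98 CPM against 372.9 ± 21.1. Dnaja1, the main J-protein partner of Hspa8, had 307 ± 21.7 against 286 ± 23.0. Hspb1 was low and uneven, at 9.92, 7.26 and 5.43 CPM against 6.80, 5.94, 8.13 and 13.4 with a wide interval of 0.575 to 1.42. Dnajb13 had 87.2 ± 5.12 CPM against 95.2 ± 4.64 (log2 fold change -0.12, edgeR adjusted p = 0.676). Hspb6, a small heat shock protein of muscle cells named after its values were seen, ran from 7.42 CPM in red blood cells 3 to 24.7 in red blood cells 2, with all saline libraries between these values.

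**Figure D3:**
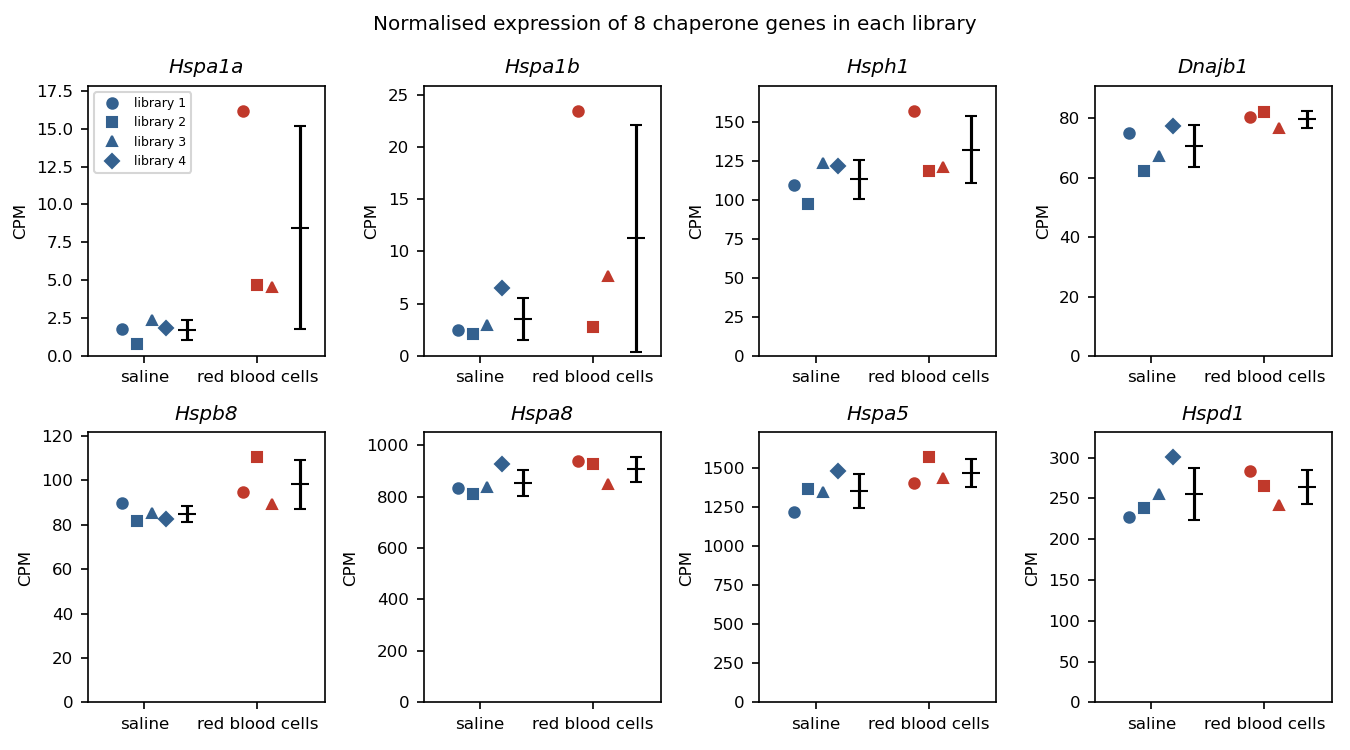
CPM of 8 chaperone genes in each library, with the group mean and SD as bars, on linear axes that start at 0. Red blood cells 1 stands apart for Hspa1a (16.2 CPM) and Hspa1b (23.5 CPM), while Hspa8, Hspa5 and Hspd1 occupy nearly the same range in both groups.

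In the ER, the Hsp70 Hspa5 is the classical readout of the unfolded protein response. Its promoter is shown with that of Hspe1 because each holds the letters of a stress element, in capitals. For Hspa5 this is the ER stress element, CCAAT and CCACG with 9 bases of any kind between them, 65 to 47 bases before the start. For Hspe1 it is the heat shock element, GAA, TTC and GAA with 2 bases of any kind between each, or its reverse complement, with 2 overlapping matches 89 to 72 bases before the start. Both were searched on both strands (RefSeq windows, GRCm38.p6, chr2:34771840-34772139 and chr1:55087898-55088197, plus strand):
Hspa5: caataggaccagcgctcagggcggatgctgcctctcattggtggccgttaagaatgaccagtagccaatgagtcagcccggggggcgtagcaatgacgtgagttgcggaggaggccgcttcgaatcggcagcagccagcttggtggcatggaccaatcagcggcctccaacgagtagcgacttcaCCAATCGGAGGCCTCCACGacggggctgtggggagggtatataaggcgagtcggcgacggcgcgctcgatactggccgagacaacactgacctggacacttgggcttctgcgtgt
Hspe1: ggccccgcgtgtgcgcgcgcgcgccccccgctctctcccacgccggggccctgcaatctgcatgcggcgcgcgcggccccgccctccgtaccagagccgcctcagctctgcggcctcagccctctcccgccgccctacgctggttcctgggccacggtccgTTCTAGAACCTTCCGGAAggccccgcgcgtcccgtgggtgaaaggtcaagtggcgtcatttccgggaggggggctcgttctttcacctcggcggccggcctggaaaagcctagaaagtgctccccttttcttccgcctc
Windows were found for 57 of the 71 genes. The ER stress element occurred in 3 of them (5.26%), Hspa5, Hsp90b1 and Dnajc3, where 0.137% of 27025 genes with a window had it. The heat shock element occurred in 4 (7.02%), Hspd1, Hspe1, Dnajb6 and Hsph1, where 0.662% of genes had it. Hspd1 and Hspe1 are transcribed away from each other and their windows share these letters. In Hsph1 the heat shock element lies after the start, at bases 37 to 49 or 16 to 28 depending on the start used. The windows of Hspa1a and Hspa1b printed above held no match to this form, which says only that these letters are not in them.

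None of the 3 genes with the ER element passed the edgeR test, where 0.0605% of all genes did. Of these 3, 0 had an unadjusted p under 0.05 in edgeR, where 9.54% of all genes did. With so few genes, these counts say little. Hspa5 had 1399, 1567 and 1434 CPM after red blood cells, and 1215, 1364, 1344 and 1478 after saline. Saline 4 lay above red blood cells 1 and 3, so the groups overlapped. The fold was 1.09 (95% interval 0.969 to 1.22, edgeR adjusted p = 0.698). Hsp90b1 had 1818 ± 57.0 CPM against 1692 ± 176 (interval 0.949 to 1.22). Dnajc3, a J-protein of the ER lumen that binds Hspa5, had 285, 268 and 209 CPM against 245, 236, 262 and 232. Its log2 fold change was 0.06 ± 0.10 (SE).

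The J-proteins that serve Hspa5 differed by small amounts in both directions. Dnajb11, which delivers unfolded clients to Hspa5, was the ER gene with the lowest p: 140.8, 149.3 and 150.1 CPM against 122.8, 134.1, 128.2 and 142.2. Only saline 4 exceeded a red blood cell library, and the log2 fold change was 0.16 ± 0.07 (SE, edgeR adjusted p = 0.520). Dnajb9, a target of the unfolded protein response, had 32.0 ± 2.10 CPM against 33.6 ± 4.98. Dnajc10, a disulfide reductase of the ER, had 205 ± 5.18 against 201 ± 12.1. Over the 13 ER genes, 9 log2 fold changes were above 0 and 4 below, with a median of 0.06, and the whole interval of each lay inside 1.5-fold. Without red blood cells 1 that median was 0.00.

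Among mitochondrial chaperones, the chaperonin subunit Hspd1 had 284, 266 and 242 CPM after red blood cells, and 228, 238, 256 and 301 after saline. Its highest value belonged to saline 4 and the groups overlapped widely (1.04-fold, 95% interval 0.895 to 1.20). Its partner Hspe1 had 68.2 ± 4.77 CPM against 66.8 ± 5.78. Hspa9, the matrix Hsp70 that pulls proteins through the inner membrane, had 249.8 ± 17.0 against 247.7 ± 13.03, with an interval of 0.909 to 1.121. Dnaja3, its J-protein in the matrix, had 68.2 ± 4.22 against 69.0 ± 2.54. Dnajc15, a J-protein of the import motor, had 34.1 ± 5.43 against 31.4 ± 2.04 CPM and the highest log2 fold change of the list, 0.12 ± 0.12 (SE). Of the 9 genes, 5 had a log2 fold change above 0 and 4 below, with a median of 0.01 (-0.02 to 0.05 with a library left out). By edgeR, 0 had an unadjusted p under 0.05, where 9.54% of all genes did.

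Set side by side, the compartments gave medians of 0.05 for the 34 tested cytosolic genes (24 above 0, 10 below), 0.06 for the ER and 0.01 for mitochondria. The difference between compartments was not tested. Within single libraries the median of log2 CPM over the saline mean was 0.13, 0.07 and -0.02 for cytosolic genes in red blood cells 1 to 3, and -0.00, -0.05, 0.01 and 0.04 in saline 1 to 4. For ER genes it was 0.07, 0.06 and 0.01 against -0.07, -0.04, 0.06 and 0.00, and for mitochondrial genes 0.11, 0.02 and -0.08 against -0.07, -0.04, -0.01 and 0.12. In each compartment the groups overlapped, and red blood cells 3 was the lowest of its group. By family, the median was 0.19 for the 3 Hsp110 genes (0.07 without red blood cells 1, 0.12 without saline 1), 0.21 for 3 small heat shock proteins (-0.03 without red blood cells 2), 0.08 for the 3 Hsp90 genes (0.03 to 0.15 with a library left out) and 0.07 for 10 Hsp70 genes (0.04 to 0.11). It was 0.04 for the chaperonin subunits (-0.01 to 0.11), 0.03 for 4 class A J-proteins (-0.01 to 0.10), -0.04 for 10 class B (-0.06 to 0.01) and 0.02 for 26 class C (0.02 to 0.04). The gene with the lowest log2 fold change was Dnajc22, not assigned to a compartment and named after its values were seen, with 5.10 CPM in saline 4 and 0.963 to 1.92 in the others. Saline 4 is the library where the hepatocyte markers were highest (1424 CPM), and the part of their source in that value was not tested. Dnajc22 did not pass the count filter when saline 1, saline 3 or saline 4 was left out. That it was tested at all thus rested on the group where it was higher.

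**Figure D4:**
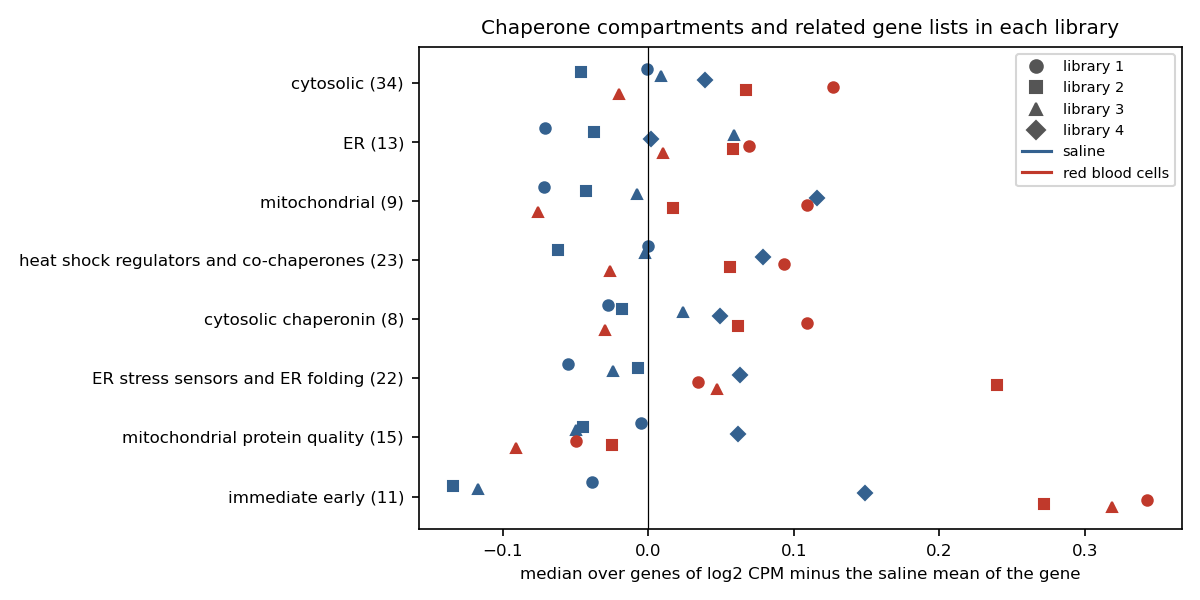
Median over the genes of a list of log2 CPM minus the gene's saline mean, 1 point per library, with the number of genes tested in parentheses. The cytosolic, ER and mitochondrial chaperone lists overlap between groups, while immediate early genes lie between 0.27 and 0.34 in red blood cell libraries and between -0.13 and 0.15 in saline libraries.

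Genes that work with the chaperones mostly differed by similarly small amounts, with some larger values in the ER. At an adjusted p of 0.05, edgeR called 0 genes in each of the following lists, where it called 0.0605% of all genes. DESeq2 (1.39% of all genes), limma-voom (0.0605%) and limma-voom with sample weights (0.323%) also called 0 in each. With so few genes per list, counts of 0 lie near these shares and say little. Of 23 tested heat shock regulators and co-chaperones, 13 were above 0 and 10 below (median 0.03, and -0.02 without red blood cells 1), and 1 (4.35%, where 9.54% of all genes did) had an unadjusted p under 0.05. This was Ptges3, the Hsp90 co-chaperone p23, with 220, 204 and 203 CPM against 167, 168, 196 and 190. The groups did not overlap, and the log2 fold change came to 0.21 ± 0.08 (SE), with an edgeR adjusted p of 0.320. Hsf1, which encodes heat shock factor 1, had 43.5 ± 4.36 CPM against 46.5 ± 4.83, and Bag3, one of its known targets, 34.1 ± 8.07 against 30.1 ± 1.82. The cytosolic chaperonin, which folds actin and tubulin, had 7 of 8 subunits above 0 with a median of 0.04. None had an unadjusted p under 0.05, where 9.54% of all genes did. Its subunits with the highest RPKM were Cct4 (275 against 263.5 CPM) and Cct2 (245 against 240.4).

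Among 22 ER stress and ER folding genes, 17 were above 0 and 5 below (77.3% above, where 49.9% of all genes were; median 0.10), and 3 (13.6%, where 9.54% of all genes did) had an unadjusted p under 0.05. Without red blood cells 2 the median was 0.04. Edem1, which sends misfolded glycoproteins to degradation, had 50.6, 58.4 and 49.6 CPM against 42.7, 36.6, 41.8 and 40.3. The groups did not overlap, and the log2 fold change came to 0.39 ± 0.09 (SE), with an edgeR adjusted p of 0.137. Sdf2l1, which works with Dnajb11, had 33.7, 44.9 and 32.6 CPM against 30.4, 28.9, 26.0 and 30.3, again without overlap (0.36 ± 0.13 SE, edgeR adjusted p = 0.306). Calr, the lectin chaperone calreticulin, had 1547 ± 107 CPM against 1347 ± 131 (edgeR adjusted p = 0.435). Red blood cells 2 was the highest library for these genes, with a list median of 0.24 where the other red blood cell libraries had 0.03 and 0.05. Of 15 genes of mitochondrial protein quality control, 6 were above 0 and 9 below (median -0.03). None had an unadjusted p under 0.05, where 9.54% of all genes did. The genes with the highest RPKM of this list were Yme1l1 (176 against 180 CPM) and Pam16 (35.9 against 39.1).

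Immediate early genes, which respond within minutes to many stimuli and to tissue handling, had 0 genes past the threshold too (0.0605% of all genes by edgeR). Of 11 tested, 10 had a log2 fold change above 0 (90.9%, where 49.9% of all genes were; median 0.38), and 3 (27.3%, where 9.54% of all genes did) had an unadjusted p under 0.05: Btg2 (26.8 ± 1.68 against 20.7 ± 1.90 CPM, edgeR adjusted p = 0.229), Atf3 (4.72 ± 2.56 against 1.88 ± 0.92, 0.254) and Fos (3.25 ± 0.47 against 1.67 ± 0.53, 0.319). The summed level of all 13 genes was 155.5 to 174.5 CPM after red blood cells and 120.8 to 145.9 after saline, without overlap. The 8 macrophage markers lay in the same direction, with a median of 0.75. By edgeR 8 of 8 had an unadjusted p under 0.05, where 5.22% of all genes did in that direction. Unlike the immediate early genes, some passed the adjusted threshold: 1 by edgeR (0.0605% of all genes) and 7 by DESeq2 (1.39%). Limma-voom called 0 (0.0605%), and 1 with sample weights (0.323%). Atf3 was highest, like Hspa1a, in red blood cells 1 (7.53 CPM, where the others had 0.963 to 4.08). In red blood cells 1 to 3 the whole immediate early list summed to 155.5, 174.5 and 163.5 CPM, lowest in red blood cells 1. Its median of log2 CPM over the saline mean was 0.34, 0.27 and 0.32 there. The part of the immediate early genes, of macrophages or of tissue handling in the Hspa1a value was not tested.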

How the data were processed

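Poly(A) RNA of 7 pooled choroid plexus samples was sequenced from directional libraries, per the labels' protocols. The authors deposited raw read counts per gene with exon lengths and positions. The build GRCm39 and the tools featureCounts 2.0.6, STAR 2.6.1b and cutadapt 2.5 are listed in the submitters' processing notes. How strand and multi-mapping reads were handled, and which annotation was used, is not stated there. Values of genes whose exons overlap others are uncertain. Examples on opposite strands are Hspa5 with Rabepk (33.6% of Hspa5 exon bases) and Dnajc30 with Bud23 (65.0%). Hspa14 overlaps Msantd7 on the same strand (19.3%), where strand cannot tell the reads apart. The lines of 6 genes were broken and left out, none of them a chaperone.

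Counts were tested with edgeR 4.0.16 (quasi-likelihood F test, robust, TMM, filterByExpr, two-sided) under R 4.3.3, without a block. P-values were adjusted by Benjamini-Hochberg over 14869 genes at a threshold of 0.05. Standard errors came from the F statistic. CPM use TMM library sizes. No pair of libraries agreed within sampling noise (chi-square per degree of freedom 3.6 to 14.19), and the common biological coefficient of variation was 13.7%. On simulated counts of this comparison (14869 genes) edgeR recovered 14%, 54%, 90% and 100% of genes changed 1.25-, 1.5-, 2- and 4-fold, with 16 false among 145 calls. Changes were placed only in genes above a limit of mean counts. Hspa1a (mean of 32.9 counts) and Hspa1b (47.1) were below it, so these rates do not cover them. The simulation also held many more changed genes than the 9 called in the data, which eases the adjustment. Shared stretches of Hspa1a and Hspa1b came from GENCODE transcripts.

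Members, lists and compartments were chosen with earlier results of these data known. Named members are those with an unadjusted p under 0.05, the 5 of each compartment with the highest RPKM and a fixed set of 19. Of each other list, those with such a p or the 2 most abundant are named. Others were chosen after their values were seen. Alternatives were DESeq2 1.42.0, limma-voom 3.58.1 with and without sample weights, other normalizations and filters, a fit that is not robust, a replicate block, and libraries left out. Figures used matplotlib 3.10.9.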

Additional observations from a re-analysis of the deposited data

How the results depend on the processing

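The 24 named chaperones were refitted under 19 alternatives, 1 of them (the summed Hspa1 pair) added after seeing the data. Of 434 values, 32 changed sign or rounded to 0 (Hspa4 with total counts only). They fell in 10 genes with a log2 fold change of at most 0.14 in size, and 14 genes kept their sign in all. The only chaperone past the threshold in any was Hspa1a, with DESeq2 and without red blood cells 3, so that the count of chaperones past it was 1 with DESeq2 and 0 to 1 with a library left out. All genes past it numbered 280 with DESeq2, 48 with weighted limma-voom, 136 without a count filter, 16 without robust estimation, 40 without red blood cells 2 and saline 4, and 1 to 283 with a library left out (283 without red blood cells 3), where edgeR gave 9. Chaperones with an unadjusted p under 0.05 numbered 3 with upper quartile normalization, 3 with the strict filter and 2 to 10 with a library left out. The cytosolic median was 0.085 with weighted limma-voom and 0.039 to 0.091 with a library left out (0.091 without saline 4), and the ER median 0.000 to 0.115 (lowest when red blood cells 1 was left out). The median of all tested chaperones was 0.012 to 0.057 and the mitochondrial median -0.023 to 0.053, so the order of the compartments was not fixed.

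Log2 fold changes that changed sign were those of Hspb1 (0.090 with weighted limma-voom, 0.164 without red blood cells 2 and saline 4, -0.398 to 0.131 with a library left out), Hspa4 (-0.015 with upper quartile, -0.005 with the strict filter, -0.034 to 0.043), Hsp90aa1 (-0.006 with upper quartile, -0.070 to 0.102), Dnaja3 (0.008 with weighted limma-voom, -0.043 to 0.036), Hspa9 (-0.003 with upper quartile, -0.033 to 0.063), Hspd1 (-0.006 to 0.143), Hspe1 (-0.023 to 0.081), Dnajc10 (-0.002 to 0.069), Dnajb9 (-0.146 to 0.040) and Dnajc3 (-0.026 to 0.185). The cause was not tested.

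Groups share replicate numbers, but same-numbered libraries did not deviate together (correlations of -0.049, -0.167 and -0.214). With a block by replicate number 2 genes and no chaperone passed, and Hspb1 had a log2 fold change of 0.099. Leaving out a library also lowers the number of samples. In simulated counts edgeR recovered 54% of 1.5-fold changes, placed only in genes above a count limit, and fewer of smaller ones. Small changes would thus often be missed. Recovery was not split by count or by variation between replicates.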
